A study of Citrullus lanatus with 36 samples.

Results

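The genes described here encode plant defense proteins, that is 106 of the 25121 named lines of an expression table of melon flesh. A gene was taken when its description contained chitinase, hevamine, snakin, thaumatin, pathogenesis-related, major latex or glucan endo-1,3-beta-glucosidase and did not contain transcription. By the same descriptions the 106 genes were 39 β-1,3-glucanases, 23 chitinases, 21 thaumatin-like proteins, 15 other pathogenesis-related proteins, 5 major latex proteins and 3 snakins. RNA was sequenced from the flesh of WT fruits (BY9H, a thin-rind melon), of homozygous *Cmnor* fruits and of heterozygous *CmNOR/Cmnor* fruits. *Cmnor* is a CRISPR/Cas9 allele of the ripening gene *CmNOR* with a deletion inside the NAC domain, carried in the BY9H background, and *CmNOR/Cmnor* is the F1 of this line and BY9H, so that each genotype with the allele goes back to 1 edited line. Sampling of each genotype fell on days 33, 36 and 39 after pollination (DAP) and on day 6 of the storage of harvested fruits, with 3 libraries in each of the 12 groups. The labels do not say whether the 3 libraries came from separate fruits or plants, so the p values measure the spread between these libraries only. The organism field of the labels names watermelon, while the gene identifiers and the genome used are those of melon.

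Plants meet fungi and other microbes with a set of small secreted proteins. Chitinases cut chitin and β-1,3-glucanases cut β-1,3-glucan, which are polymers of fungal cell walls, and β-1,3-glucanases also break down callose, the plant's own β-1,3-glucan at plasmodesmata and sieve plates. Thaumatin-like proteins (the PR-5 family) include antifungal members and relatives of sweet-tasting thaumatin, and snakins are short cysteine-rich antimicrobial peptides of the gibberellin-regulated GASA family. PR-1 proteins belong to the CAP family of secreted cysteine-rich proteins, PR-4 proteins carry a Barwin domain, and major latex proteins share the Bet v 1 fold of the PR-10 proteins. Many such genes are turned on by pathogens and by salicylic acid, jasmonate or ethylene, and in fleshy fruits some chitinases and thaumatin-like proteins are abundant during ripening without infection.

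Domain annotation bore out the descriptions for 99 of the 106 genes, and 7 carried another domain or none. Among these 7 are the thaumatin-like gene MELO3C012060.2, annotated with an RNA recognition motif, and the glucanase MELO3C005907.2, annotated with a cytochrome b5 domain. The chitinases comprised 11 of glycosyl hydrolase family 19 (chitinase class I) and 11 of family 18, and 32 genes carried the family 17 domain of β-1,3-glucanases. Another 5 genes described as glucanases were annotated with the X8 domain alone, which was counted here as bearing out the description. In at least 1 of the 12 groups, 77 genes reached a mean of 1 FPKM (fragments per kilobase of transcript, scaled to the mapped reads of the library), 47 reached 5 FPKM and 15 reached 50 FPKM. The remaining 29 genes stayed under 1 FPKM in every group. At 1 FPKM stood 30 of 39 glucanases, 21 of 23 chitinases, 12 of 21 thaumatin-like genes, 6 of 15 other pathogenesis-related genes, all 5 major latex genes and all 3 snakins. The group with the highest mean was one of *Cmnor* for 59 of the 77 genes, of WT for 11 and of *CmNOR/Cmnor* for 7. Over the 18096 genes of the table that reached 1 FPKM, it was *Cmnor* for 67.4%, WT for 19.5% and *CmNOR/Cmnor* for 13.1%.

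Depth estimated from the steps between low FPKM values ran from 17.75 M to 36.88 M fragments per library, so that a single fragment in 1 kb of transcript stood for 0.0271 to 0.0563 FPKM. Replicates of a group correlated over genes at r = 0.968 to 0.995, and no 2 libraries held the same values. The level of *CmNOR* itself was not analysed here, as no source used names its identifier. ACC oxidase genes (17 genes), which make the ripening hormone ethylene, summed to 9041 to 14870 FPKM in WT libraries, 7667 to 17035 FPKM in *CmNOR/Cmnor* libraries and 644 to 1586 FPKM in *Cmnor* libraries. Other lists moved differently. In WT, *CmNOR/Cmnor* and *Cmnor* in this order, expansins (30 genes, cell wall loosening) summed to 17.03 to 73.2, 18.7 to 58.4 and 119 to 211 FPKM, polygalacturonases (46 genes, pectin breakdown) to 303 to 901, 627 to 2385 and 246 to 357 FPKM, and seed storage genes (13 genes) to 45.8 to 105, 42.4 to 95.7 and 72.3 to 109.6 FPKM. Genes annotated as phloem proteins (22 genes) summed to 54.0 to 502 FPKM in WT, 75.7 to 3147 FPKM in *CmNOR/Cmnor* and 2558 to 11421 FPKM in *Cmnor*. The 22 phloem genes included 2 that were at 0 in every WT library, 1 in *CmNOR/Cmnor* and 0 in *Cmnor*. Rind genes (15 genes, wax and cutin synthesis) summed to 15.5 to 42.1, 11.97 to 72.4 and 56.1 to 84.3 FPKM, and chlorophyll a-b binding genes (18 genes, green tissue) to 9768 to 22211, 11202 to 23768 and 438 to 1204 FPKM, in WT, *CmNOR/Cmnor* and *Cmnor* in this order. Heat shock genes (65 genes) summed to 3416 to 12179, 2764 to 3910 and 1959 to 6053 FPKM in the same order. These sums moved with the genotypes that are compared below, and their part in the results was not tested. In RNA from whole flesh, fewer cells of a type and less RNA per cell cannot be told apart.

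Added up in each library, the 106 genes were of similar weight in the 3 genotypes at 36 DAP, with different leading genes. At 33 DAP the summed level was 3539 ± 472 FPKM in WT (SD over 3 libraries, here and below), 6832 ± 763 FPKM in *CmNOR/Cmnor* and 3858 ± 118 FPKM in *Cmnor*. At 36 DAP it was 2372 ± 291, 2068 ± 160 and 2108 ± 117 FPKM, and at 39 DAP 1698 ± 130, 1188 ± 111 and 6019 ± 408 FPKM in the same order. In WT and *CmNOR/Cmnor* the sum was lowest at 39 DAP, and in *Cmnor* it was highest there, with no overlap between *Cmnor* libraries and the others. After storage the sums were 2521 ± 291, 2339 ± 233 and 4980 ± 58.4 FPKM.

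One gene held the largest share of this sum in WT and *CmNOR/Cmnor*, and another held it in *Cmnor*. The hevamine-A-like chitinase MELO3C006965.2 held 74.2, 65.2, 48.9 and 64.3% of the sum in WT at 33, 36 and 39 DAP and after storage, and 76.7, 68.4, 39.0 and 77.6% in *CmNOR/Cmnor*, against 0.140 to 0.281% in *Cmnor*. The snakin-2-like gene MELO3C011008.2 held 68.7, 34.8, 78.0 and 78.0% in *Cmnor*, 0.188 to 1.82% in WT and 0.2997 to 2.10% in *CmNOR/Cmnor*. The other 104 genes together gave 797 to 914 FPKM in WT, 512 to 1445 FPKM in *CmNOR/Cmnor* and 1087 to 1365 FPKM in *Cmnor*, as means of a group.

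**Figure D1:**
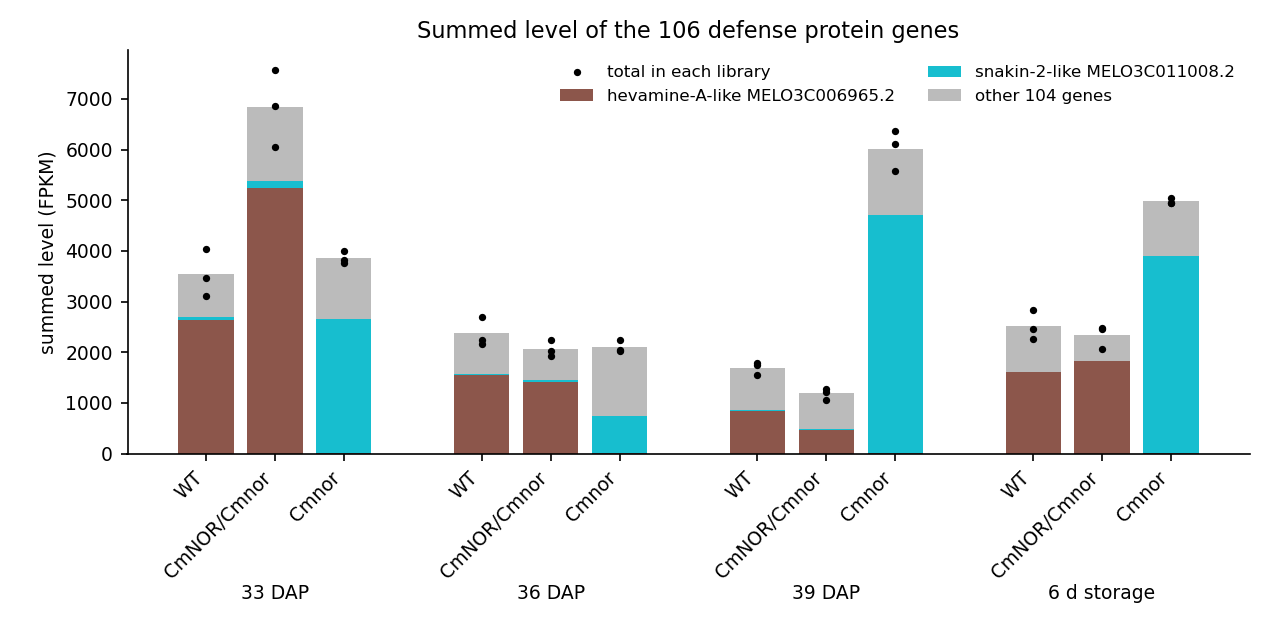
Summed level in FPKM of the 106 defense genes in the 12 groups (bars are means of 3 libraries, points the libraries), split into the hevamine-A-like gene, the snakin-2-like gene and the other 104 genes. At 39 DAP the bars reach 1698 FPKM in WT, 1188 FPKM in *CmNOR/Cmnor* and 6019 FPKM in *Cmnor*, of which snakin-2 makes up 78.0% in *Cmnor*.

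Differences of single defense genes between the genotypes were tested with limma on log2(FPKM + 1), in which a gene was called when its Benjamini-Hochberg adjusted p over all 24901 tested genes was under 0.05 and its log2 difference at least 1. In *Cmnor* against WT, 36 of the 106 genes were higher and 7 lower at 33 DAP, 37 and 2 at 36 DAP, 34 and 7 at 39 DAP, and 32 and 6 after storage. Of all genes tested, 22.8% were higher and 6.37% lower at 33 DAP, 22.9% and 6.79% at 36 DAP, 19.8% and 8.65% at 39 DAP, and 21.4% and 6.81% after storage. The median log2 difference of the 106 genes was 0.50, 0.41, 0.44 and 0.47 at the 4 stages, beside 0.21, 0.17, 0.06 and 0.14 over all tested genes. Without the fold threshold 75, 69, 73 and 71 of the 106 genes passed the adjusted p at these stages, beside 63.5%, 62.8%, 62.5% and 61.8% of all genes tested.

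The scale of FPKM bears on these counts, since the median of expressed genes itself lay above 0 in *Cmnor*, by 0.52, 0.49, 0.31 and 0.45 on the log2 scale at the 4 stages. When libraries were scaled to the same median, 23 defense genes were called higher and 9 lower at 33 DAP, 23 and 5 at 36 DAP, 29 and 9 at 39 DAP, and 24 and 11 after storage. All genes then split more evenly, with 13.8% higher and 11.4% lower at 33 DAP, 14% and 12% at 36 DAP, 14.9% and 12.8% at 39 DAP, and 13.2% and 12.8% after storage. Higher calls outnumbered lower ones among the defense genes on both scales.

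**Figure D2:**
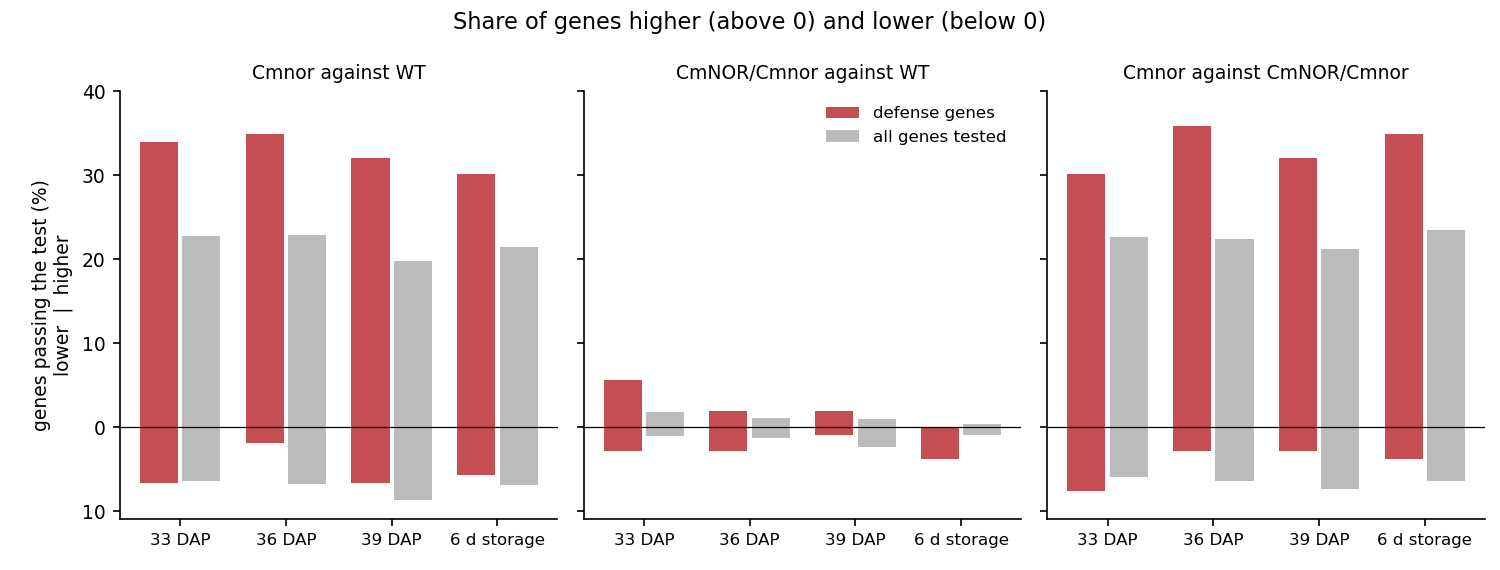
Percent of the 106 defense genes (red bars) and of all 24901 genes tested (grey bars) that limma called higher (above 0) or lower (below 0) at each stage, in 3 panels for the 3 genotype comparisons. At 33 DAP, *Cmnor* against WT had 36 of the 106 genes higher and 7 lower, beside 22.8% and 6.37% of all genes, while *CmNOR/Cmnor* against WT had 6 higher and 3 lower.

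At all 4 stages, 20 defense genes were higher in *Cmnor* than in WT, beside 10.5% of all tested genes, and 2 were lower, beside 2.94%. The 20 were 11 glucanases, 4 thaumatin-like genes, 3 chitinases and 2 snakins, and the 2 were the hevamine-A-like gene and the glucanase MELO3C014432.2. At 1 stage or more, 64 of the 106 genes were called, beside 47.3% of all tested genes. Of the 64 genes, 4 were called in opposite directions at different stages, namely the glucanases MELO3C004704.2, MELO3C020630.2 and MELO3C014182.2 and the PR-4-like gene MELO3C004385.2. Those of MELO3C020630.2 were near the threshold (-1.12 at 39 DAP and 1.02 after storage), and the first was lost without *Cmnor* replicate 3, the second without WT replicate 1 or *Cmnor* replicate 2. The lower call of MELO3C004385.2, after storage, came from uneven WT libraries (20.1, 5.21 and 66.5 FPKM) that overlapped *Cmnor* (5.53, 5.32 and 3.09 FPKM). It was lost in the limma fit of only the libraries compared (adjusted p = 0.144).

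The β-1,3-glucanases, the family with the most genes, also held the most calls in *Cmnor*. Of 39 genes, 15 were higher and 2 lower than in WT at 33 DAP, 19 and 1 at 36 DAP, 15 and 4 at 39 DAP, and 16 and 1 after storage. As a share of the family this was 43.6%, 51.3%, 48.7% and 43.6%, beside 43.5%, 39.1%, 39.1% and 26.1% of the 23 chitinases and 66.7% or more of the 3 snakins. In the whole set of tested genes, 22.8% were higher and 6.37% lower at 33 DAP, and 22.9% and 6.79% at 36 DAP. At 39 DAP these shares were 19.8% and 8.65%, and after storage 21.4% and 6.81%. The families were not counted with libraries scaled to the same median. The summed level of the glucanases was 554, 658, 598 and 457 FPKM in *Cmnor*, against 305, 303, 260 and 175 FPKM in WT and 259, 236, 244 and 161 FPKM in *CmNOR/Cmnor*. The sum in *Cmnor* thus stood above both other genotypes at each stage. This sum covers all 39 genes by description, of which 32 carried the family 17 domain of β-1,3-glucanases. Among the rest is MELO3C005907.2 with a cytochrome b5 domain (105 FPKM in *Cmnor* and 51.6 FPKM in WT at 33 DAP). Another is MELO3C029279.2 without an annotated domain (52.1 and 1.06 FPKM).

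Glucan endo-1,3-beta-glucosidase 7 (MELO3C003846.2) gave 9.51, 9.27 and 8.34 FPKM in WT at 33 DAP and 36.9, 33.8 and 33.8 FPKM in *Cmnor*. After storage it gave 2.45, 2.06 and 2.14 FPKM in WT and 68.04, 72.01 and 67.7 FPKM in *Cmnor*. The groups did not overlap at any stage, and WT was lowest at 39 DAP while *Cmnor* was highest after storage. The log2 difference was 1.84 ± 0.13 (SE) at 33 DAP, 3.03 at 36 DAP, 4.06 at 39 DAP and 4.45 ± 0.13 after storage (adjusted p = 1.5e-21), where the ratio of means was 31.3-fold.

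A pair of genes both described as glucan endo-1,3-beta-glucosidase 4 lies 585 bp apart on chromosome 2 of the Melon (DHL92) v3.6.1 assembly, whose coordinates are used throughout. Neither was annotated with the family 17 domain of β-1,3-glucanases. MELO3C029279.2 has no annotated domain, and MELO3C015243.2 has the X8 domain alone. In WT at 33 DAP MELO3C029279.2 (212462 to 213211) gave 1.09, 1.14 and 0.957 FPKM, and in *Cmnor* 50.6, 50.8 and 54.9 FPKM. Its neighbour MELO3C015243.2 gave 0.827, 0.545 and 0.649 FPKM in WT and 29.1, 26.2 and 28.9 FPKM in *Cmnor*. Both were low in all WT and *CmNOR/Cmnor* libraries and high in all *Cmnor* libraries, with log2 differences from WT of 4.69, 4.24, 4.44 and 3.52 for the first and 4.12, 3.44, 3.67 and 2.98 for the second. How fragments shared by such neighbouring genes were counted is not stated, so their levels are not certain to be separate.

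Glucan endo-1,3-beta-glucosidase 13 (MELO3C015424.2) was at or below 1.10 FPKM in every WT and *CmNOR/Cmnor* library and reached 20.9, 20.8 and 20.1 FPKM in *Cmnor* at 33 DAP. Its log2 difference from WT was 3.98 ± 0.10 there and 2.40 to 3.04 at the later stages. Glucosidase 5 (MELO3C003659.2) stood at 3.53, 3.22 and 2.90 FPKM in stored WT fruits and at 39.3, 39.2 and 38.3 FPKM in stored *Cmnor* fruits, a ratio of 12.1-fold. Also called at all 4 stages were, among others, MELO3C015084.2 (log2 differences of 2.03 to 2.43), MELO3C017880.2 (1.62 to 2.66) and MELO3C016635.2 (1.28 to 1.35). So was MELO3C012642.2 (1.30 to 2.11), which carries the callose-binding X8 domain.

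Other glucanases went the other way, or both ways. Glucosidase 12 (MELO3C014432.2) gave 9.09, 13.6 and 11.7 FPKM in stored WT fruits and 0.0673, 0.142 and 0.0402 FPKM in stored *Cmnor* fruits, without overlap at any stage. It was lower by log2 differences of -1.05, -1.04, -1.21 and -3.51, of which the calls at 33 and 36 DAP lie near the threshold and are lost without *Cmnor* replicate 3 of 33 DAP (-0.93) or without WT replicate 2 or *Cmnor* replicate 1 or 2 of 36 DAP (-0.96 to -0.94). Glucosidase 14 (MELO3C004704.2) was the glucanase with the highest mean level of a group. At 33 DAP it gave 140, 63.8 and 103 FPKM in WT and 27.6, 35.9 and 25.6 FPKM in *Cmnor*, and at 36 DAP 42.2, 29.6 and 66.3 FPKM in WT and 140, 140 and 157 FPKM in *Cmnor*. The order of the genotypes was thus opposite at the 2 stages, with no overlap at either, and the log2 difference moved from -1.69 ± 0.27 at 33 DAP (adjusted p = 3.6e-06) to 1.71 at 36 DAP and 1.72 at 39 DAP. After storage it was 0.30 (adjusted p = 0.371).

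**Figure D3:**
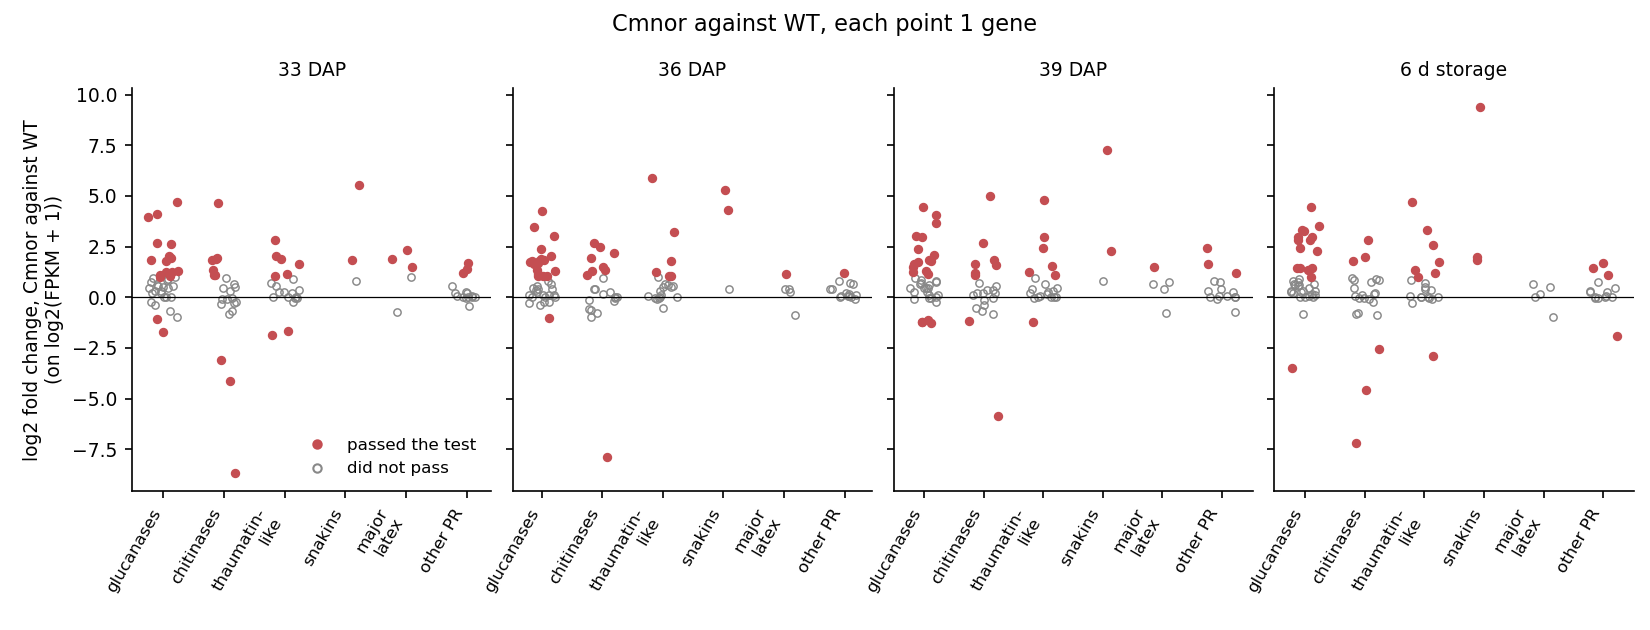
Log2 fold change on the log2(FPKM + 1) scale between *Cmnor* and WT for each of the 106 genes, by family and stage (1 point a gene, filled red when it passed the test and open grey when it did not, spread sideways within a family only for legibility). The glucanases hold 15 to 19 higher calls at a stage, and the hevamine-A-like gene is the lowest point among the chitinases, at -8.68 at 33 DAP.

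Among the chitinases the direction differed from gene to gene. Of 23 genes, 7 were higher and 3 lower in *Cmnor* at 33 DAP, 8 and 1 at 36 DAP, 7 and 2 at 39 DAP, and 3 and 3 after storage. Beside this, 22.8%, 22.9%, 19.8% and 21.4% of all genes tested were higher at these stages. Lower were 6.37%, 6.79%, 8.65% and 6.81% of all genes, so that calls in both directions were not particular to the chitinases. The hevamine-A-like gene MELO3C006965.2 (chromosome 6, 7751223 to 7752415), a family 18 member named after the chitinase of rubber latex, was the most abundant defense gene in WT and *CmNOR/Cmnor*. At 36 DAP it gave 1379.6, 1938 and 1351 FPKM in WT, at 39 DAP 929, 902 and 671 FPKM, and stored WT fruits gave 1513, 1710.3 and 1585 FPKM. In *Cmnor* it gave 3.86, 8.72 and 4.95 FPKM, 7.86, 21.5 and 13.8 FPKM and 6.24, 13.6 and 11.8 FPKM. Every WT library stood far above every *Cmnor* library, by ratios of means of 266-fold at 36 DAP, 57.9-fold at 39 DAP and 152-fold after storage. The log2 differences from 33 DAP to storage were -8.68 ± 0.28, -7.87, -5.85 and -7.18 (adjusted p between 1.9e-20 and 1.2e-16).

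Next to each other on chromosome 8 lie 5 family 19 chitinase genes, between 6483540 and 6508525. The first, family 19 chitinase MELO3C007961.2, gave 114, 73.7 and 92.9 FPKM in WT, 553, 556 and 700 FPKM in *CmNOR/Cmnor*, but 9.22, 8.96 and 12.05 FPKM in *Cmnor* at 33 DAP. The 3 genotypes did not overlap, with *CmNOR/Cmnor* highest and *Cmnor* lowest. The difference of *Cmnor* from WT was -3.08 ± 0.52 at 33 DAP and -4.59 ± 0.52 after storage, and it was -0.20 (adjusted p = 0.828) and -0.52 (adjusted p = 0.42) at the stages between. The last of the 5, endochitinase-like MELO3C007966.2, showed the opposite order. It stayed at or under 0.0521 FPKM in every WT and *CmNOR/Cmnor* library and gave 29.4, 21.1 and 22.5 FPKM in *Cmnor* at 33 DAP. Later *Cmnor* gave 2.38, 3.57 and 5.37 FPKM (36 DAP), 2.44, 8.04 and 7.76 FPKM (39 DAP) and 0.0140, 0.0508 and 0.0251 FPKM (storage). It was called higher in *Cmnor* at the first 3 stages and fell back to the level of the other genotypes in storage. MELO3C007963.2, between them, was at 0 in 11 of 12 WT libraries and at 1.43 to 3.58 FPKM in *Cmnor*. These neighbours are family members whose shared reads may have been divided between them.

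Acidic endochitinase-like MELO3C005859.2 was on in WT and *CmNOR/Cmnor* early and off in *Cmnor*. At 33 DAP it gave 27.8, 17.5 and 20.6 FPKM in WT, 24.7, 29.6 and 31.6 FPKM in *CmNOR/Cmnor*, but 0.279, 0.368 and 0.159 FPKM in *Cmnor*, where the difference from WT was -4.16 on the log2 scale. After storage WT gave 41.8, 2.53 and 1.65 FPKM, of which replicate 1 stood far above both others. Endochitinase EP3-like MELO3C002759.2 gave 0.266, 0.0304 and 0.481 FPKM in WT and 26.98, 54.7 and 39.5 FPKM in *Cmnor* at 39 DAP, with log2 differences of 1.87, 2.68 and 4.999 at 33, 36 and 39 DAP. Stored WT fruits again had replicate 1 apart, at 19.5, 0.995 and 0.614 FPKM, and there the difference was -0.10 (adjusted p = 0.964).

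Chitinase-like protein 1, which in Arabidopsis acts in cellulose deposition and not in defense, was present as 2 genes 111 bp apart on chromosome 7 (MELO3C032841.2 and MELO3C017677.2). They gave 57.4 to 212 FPKM over the 36 libraries, and no comparison of *Cmnor* with WT passed the fold threshold for either. Some differences passed the adjusted p alone, the largest being 0.77 ± 0.09 for MELO3C017677.2 after storage.

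Called thaumatin-like genes were mostly higher in *Cmnor*, with 6 of 21 higher and 2 lower at 33 DAP, 6 higher at 36 DAP, 6 higher and 1 lower at 39 DAP, and 7 higher and 1 lower after storage. Over all genes tested, 22.8%, 22.9%, 19.8% and 21.4% were higher at these stages. Of the calls over all genes, 78.1%, 77.1%, 69.6% and 75.9% were higher, so that this direction was not particular to the family. At 36 DAP the family summed to 286 FPKM in *Cmnor*, 150 FPKM in WT and 80.9 FPKM in *CmNOR/Cmnor*. Thaumatin-like protein 1 (MELO3C013762.2) gave 38.7, 23.6 and 29.2 FPKM in WT and 125, 108 and 107 FPKM in *Cmnor* at 33 DAP. At 36 DAP it gave 1.23, 0.371 and 0.921 FPKM in WT and 106, 111 and 101 FPKM in *Cmnor*. Every WT library at 36 DAP thus lay below every WT library at 33 DAP, while no *Cmnor* library of these stages was below 101 FPKM, and the log2 difference was 1.88, 5.89 ± 0.23, 4.82 and 4.70 at the 4 stages.

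Thaumatin-like protein 1b isoform X1 (MELO3C020802.2) differed at each stage, at 3.59, 4.59 and 3.90 FPKM in WT and 45.8, 45.7 and 47.04 FPKM in *Cmnor* at 36 DAP and at log2 differences of 2.81 to 3.34 over the 4 stages. A second thaumatin-like protein 1 gene, MELO3C003745.2, gave 23.3, 14.9 and 24.1 FPKM in WT and 85.9, 87.3 and 82.95 FPKM in *Cmnor* at 33 DAP. It was called at 33 DAP (2.02), 39 DAP (2.45) and after storage (2.58), and at 36 DAP the difference was 0.61 (adjusted p = 0.152). The most abundant member, thaumatin-like protein 1b MELO3C011018.2, peaked in WT. It gave 147, 139 and 153 FPKM in WT, 109, 96.04 and 106 FPKM in *CmNOR/Cmnor*, but 68.1, 58.5 and 59.9 FPKM in *Cmnor* at 39 DAP, without overlap, and was called lower in *Cmnor* at that stage (-1.22).

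The 3 snakin genes were all higher in *Cmnor* at 1 stage or more, 2 of them at every stage. The snakin-2-like gene MELO3C011008.2 (chromosome 3, 29395042 to 29396067) gave 46.8, 66.1 and 58.5 FPKM in WT and 2757, 2566 and 2624 FPKM in *Cmnor* at 33 DAP. At 39 DAP it gave 36.2, 21.5 and 34.1 FPKM and 4877, 4162 and 5065 FPKM, and after storage 5.40, 4.25 and 4.49 FPKM and 3849.5, 3864 and 3935 FPKM, in the same order. No library of WT came near the lowest library of *Cmnor*, which gave 634 FPKM at 36 DAP. The ratios of means were 46.4-fold at 33 DAP, 39.0-fold at 36 DAP, 154-fold at 39 DAP and 824-fold (SD 107) after storage, and the log2 differences were 5.53 ± 0.22, 5.29, 7.25 and 9.41 (adjusted p = 2e-23 after storage).

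Snakin-1 (MELO3C018503.2) was near 0 in WT from 36 DAP and gave 16.6, 20.2 and 20.7 FPKM in *Cmnor* at 36 DAP against 0, 0 and 0.0712 FPKM in WT. Its log2 differences were 1.83, 4.29, 2.30 and 1.97. A snakin-2-like isoform X1 gene, MELO3C002243.2, stayed at or under 0.147 FPKM in all WT and *CmNOR/Cmnor* libraries and reached 2.35, 2.79 and 3.05 FPKM in stored *Cmnor* fruits, where alone it was called (1.82).

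**Figure D4:**
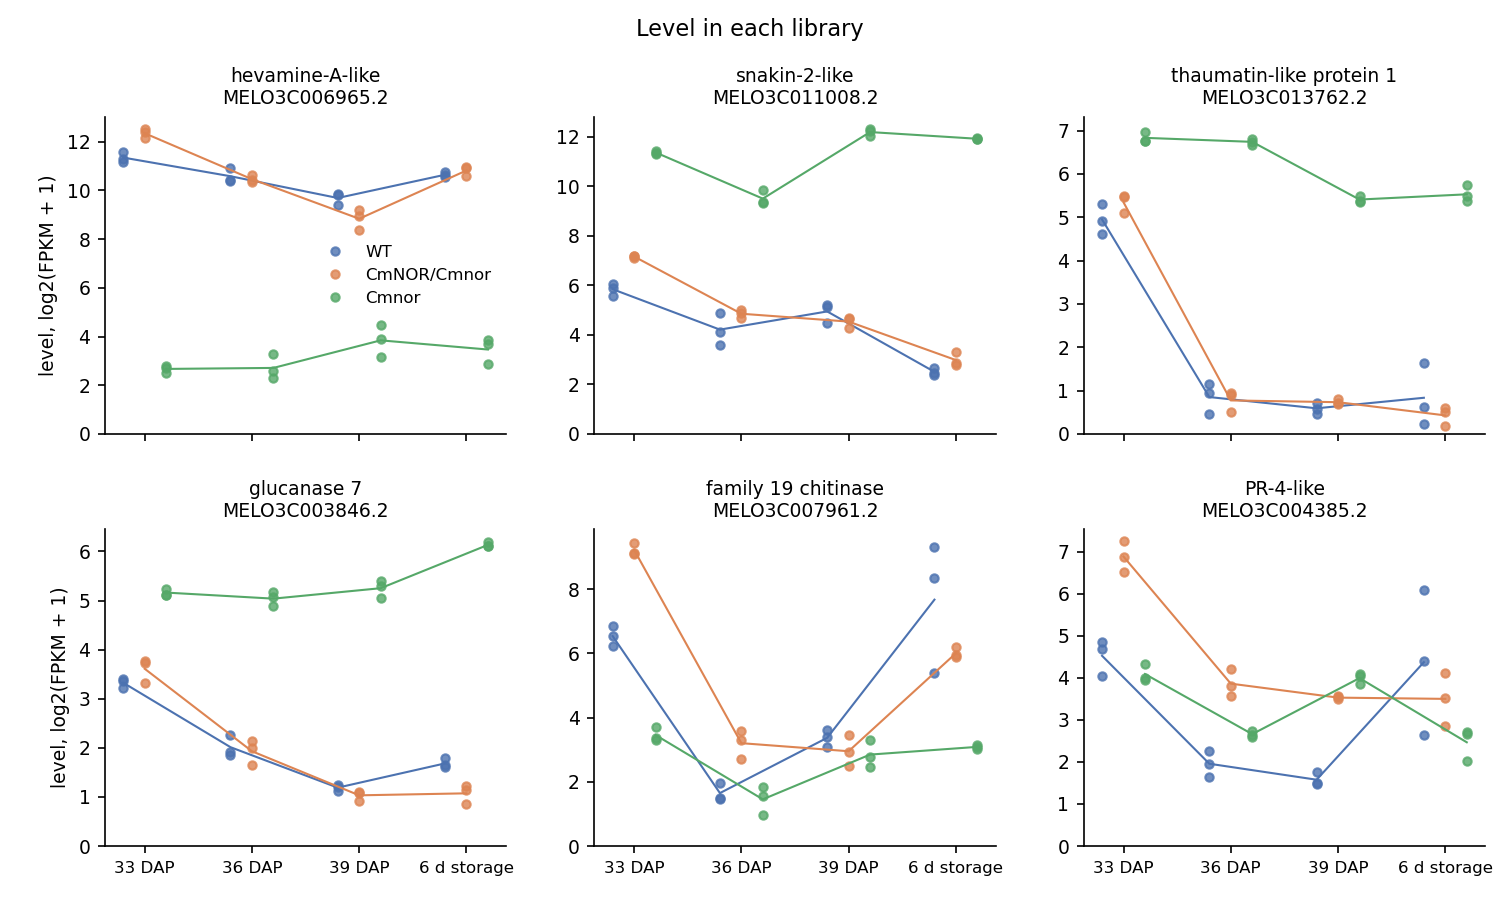
Level as log2(FPKM + 1) in each library (points) for 6 defense genes by stage and genotype, with lines joining the group means of these log2 values and a separate vertical scale in each panel. In FPKM, the snakin-2-like gene lies between 634 and 5065 in *Cmnor* and at no more than 147 in the other genotypes, and the hevamine-A-like gene lies between 3.86 and 21.5 in *Cmnor* and at no less than 331 in the others.

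Of the 15 other pathogenesis-related genes, 3 were higher in *Cmnor* at 33 DAP, 1 at 36 DAP and 3 at 39 DAP, and after storage 3 were higher and 1 lower. Among all genes tested, 22.8%, 22.9%, 19.8% and 21.4% were higher at these stages, near or above the share of these 15. After storage 6.81% of all genes were lower. Among the 15 are 2 described as pathogenesis-related homeodomain proteins, annotated with a PHD-finger and with no domain of the PR families. The call at 36 DAP was that of MELO3C017429.2, which is such a gene (3.42 FPKM in *Cmnor* and 0.915 FPKM in WT). It was also among those higher at 33 DAP and after storage. The PR-4-like gene MELO3C004385.2 (chromosome 5), whose Barwin domain is the mark of PR-4 proteins, was the only one of the 15 that passed 50 FPKM in any group. The PR-1 type genes among the 15 had group means of at most 2.25 FPKM. MELO3C017496.2 (chromosome 2) was the highest of them, at 1.85, 2.29 and 2.61 FPKM in *Cmnor* at 33 DAP and at or under 0.0446 FPKM in every WT library, and it was called higher at 33 DAP (1.67), 39 DAP (1.63) and after storage (1.68). MELO3C003082.2, annotated as pathogenesis-related protein 1A, was called at 33 and 39 DAP (1.20 at each), with means of 1.40 and 1.46 FPKM in *Cmnor*. On chromosome 1, 5 PR-1 type genes lie between 991497 and 1020361, and their highest group mean was 1.30 FPKM. Just beside this cluster (978647 to 979283) lies MELO3C018536.2, a PR1 gene of the study that the descriptions used here did not select. It gave 2.03, 3.10 and 2.82 FPKM in WT at 33 DAP and 44.8, 57.5 and 266 FPKM in *Cmnor*, and its log2 difference was 4.63, 4.86, 4.44 and 5.95 at the 4 stages. Its libraries were uneven in *Cmnor* (88.8, 1151 and 145 FPKM after storage), but none overlapped WT. Stored *CmNOR/Cmnor* fruits gave 27.3, 18.2 and 11.3 FPKM, against 4.30, 2.13 and 2.84 FPKM in stored WT fruits. That log2 difference of 2.24 was called (limma, adjusted p = 0.022), while 1.49, 1.585 and 0.297 at 33, 36 and 39 DAP were not.

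The 5 major latex genes were 3 higher in *Cmnor* at 33 DAP, 1 higher at 36 DAP and 1 at 39 DAP. Beside these counts, 22.8%, 22.9% and 19.8% of all genes tested were higher. At 33 DAP the calls of MELO3C020270.2 and MELO3C020271.2 rested on 1 library. Major latex protein 149-like MELO3C020270.2 gave 1.36, 43.8 and 1.69 FPKM in *Cmnor* and 0.382, 9.13 and 0.214 FPKM in *CmNOR/Cmnor*, of which replicate 2 stood far above both others in each genotype, and 0.225, 0.479 and 0.219 FPKM in WT. Its neighbours on chromosome 6, MELO3C020271.2 and MELO3C020273.2, gave 0.848, 7.01 and 0.581 FPKM and 3.13, 7.29 and 3.003 FPKM in *Cmnor*, again with replicate 2 on top. Without *Cmnor* replicate 2, the calls of MELO3C020270.2 (log2 difference 2.34 with it and 0.95 without it) and MELO3C020271.2 (0.77 without it) at 33 DAP were lost.

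With one copy of *CmNOR*, few of these genes were called. Against WT, 6 genes were higher and 3 lower at 33 DAP, 2 and 3 at 36 DAP, and 2 and 1 at 39 DAP. After storage 0 were higher and 4 lower by limma, with 5 higher and 18 lower at an unadjusted p under 0.05. Of all genes, 1.88% were higher and 0.98% lower at 33 DAP, 1.06% and 1.22% at 36 DAP, 1.04% and 2.38% at 39 DAP, and 0.454% and 0.904% after storage. At 1 stage or more 12 of the 106 genes were called, beside 7.24% of all genes. The WT libraries are the same ones as in the comparison with *Cmnor*.

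Of the 6 genes higher in *CmNOR/Cmnor* at 33 DAP, the family 19 chitinase MELO3C007961.2 and the PR-4-like gene changed most. The former was 6.44-fold higher in the ratio of means (log2 difference 2.69 ± 0.52, adjusted p = 0.00034). PR-4-like MELO3C004385.2 gave 24.6, 15.4 and 28.02 FPKM in WT, 116, 91.1 and 151 FPKM in *CmNOR/Cmnor*, but 14.5, 18.9 and 14.9 FPKM in *Cmnor*. Here *CmNOR/Cmnor* lay above both others. At 36 DAP it gave 17.6, 12.97 and 10.8 FPKM, against 2.85, 2.14 and 3.82 FPKM in WT and 5.65, 5.27 and 5.06 FPKM in *Cmnor*. At 39 DAP both mutant genotypes lay above WT (2.39, 1.77 and 1.82 FPKM), and *Cmnor* (16.1, 15.4 and 13.4 FPKM) lay above *CmNOR/Cmnor* (10.3, 10.6 and 10.8 FPKM). The *CmNOR/Cmnor* log2 differences from WT of 2.36, 1.90 and 1.95 were called at the 3 stages, and -0.87 after storage was not (adjusted p = 0.278). The hevamine-A-like gene gave 3062, 2303 and 2524 FPKM in WT and 5331, 4587 and 5815 FPKM in *CmNOR/Cmnor* at 33 DAP without overlap, but at a log2 difference just short of the threshold of 1 (0.996, adjusted p = 0.0096). The other genes higher at 33 DAP were snakin-2 (1.32, with 143, 139 and 147 FPKM), Snakin-1 MELO3C018503.2 (1.59) and the glucanases MELO3C005794.2 (1.37) and MELO3C014182.2 (1.36).

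A single defense gene was lower in *CmNOR/Cmnor* than in WT at all 4 stages, beside 0.0723% of all tested genes. The glucanase MELO3C023847.2 gave 14.1, 14.3 and 14.7 FPKM in WT and 3.95, 2.52 and 6.13 FPKM in *CmNOR/Cmnor* at 36 DAP, and 14.2, 10.6 and 12.97 FPKM and 2.28, 3.04 and 2.86 FPKM at 39 DAP. WT and *CmNOR/Cmnor* did not overlap at any stage, and the log2 differences were -1.22, -1.62, -1.86 and -1.63. The *Cmnor* differences from WT were 0.45, -0.38, 0.78 and 1.35. At 36 DAP every *Cmnor* library (10.7, 9.18 and 12.8 FPKM) lay below WT, short of a call (adjusted p = 0.297), and of the 4 differences only the last was called, a call that was lost without WT replicate 2 (0.79). The glucanase MELO3C004704.2 was lower at 33 DAP (-1.11) and 36 DAP (-1.92), and the call at 33 DAP was lost without WT replicate 1 (-0.85). Calls of MELO3C007961.2 at 36 DAP (1.55) and after storage (-1.67) were each lost when any 1 of 5 of the 6 libraries was left out, and that of MELO3C005859.2 after storage (-2.23) was lost without WT replicate 1 (-0.96). With only the libraries compared in the fit, all 4 storage calls were lost, that of MELO3C023847.2 at an adjusted p of 0.24, so that this gene was then called at 33, 36 and 39 DAP only. Lost too were both calls of MELO3C004704.2 in that fit (adjusted p = 0.0876 and 0.065).

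*Cmnor* against *CmNOR/Cmnor* uses the same *Cmnor* libraries and gave 32 genes higher and 8 lower at 33 DAP, 38 and 3 at 36 DAP, 34 and 3 at 39 DAP, and 37 and 4 after storage. Of all genes, 22.7% and 5.96% were called at 33 DAP, 22.4% and 6.42% at 36 DAP, 21.2% and 7.39% at 39 DAP, and 23.5% and 6.33% after storage. Scaled to the same median, 18 were higher and 11 lower at 33 DAP, 22 and 4 at 36 DAP, 29 and 7 at 39 DAP, and 23 and 8 after storage, beside 12.1% and 10.7%, 13.2% and 11.8%, 14.8% and 12.4%, and 13.3% and 13% of all genes at these stages.

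From 33 to 39 DAP, more defense genes fell than rose in WT and *CmNOR/Cmnor*. In WT 2 genes rose and 11 fell, beside 3.67% and 3.35% of all genes. In *CmNOR/Cmnor* 5 rose and 19 fell (3.37% and 4.91% of all genes), and in *Cmnor* 6 rose and 7 fell (2.9% and 3.63%). Thaumatin-like protein 1 MELO3C013762.2 fell by 4.36 on the log2 scale in WT and by 4.61 in *CmNOR/Cmnor*. The family 19 chitinase MELO3C007961.2 fell by 3.17 in WT and by 6.28 in *CmNOR/Cmnor*, the hevamine-A-like gene MELO3C006965.2 by 1.66 and 3.51, and the glucanase MELO3C003846.2 by 2.14 and 2.58. Thaumatin-like protein 1b MELO3C011018.2 went against this, rising by 1.35 in WT and 1.92 in *CmNOR/Cmnor*. In *Cmnor* the hevamine-A-like gene rose by 1.17 from its low level, a call lost without *Cmnor* replicate 2 of 39 DAP.

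The change from 33 to 39 DAP differed from that in WT for 19 of the 106 genes in *Cmnor*, beside 15.9% of all tested genes, and for 9 in *CmNOR/Cmnor*, beside 5.03%, by the interaction term of the same limma fit. In *Cmnor* 13 of the 19 had a change above that in WT, among them acidic endochitinase-like MELO3C005859.2 (difference of changes 3.46), glucanase MELO3C004704.2 (3.41) and EP3-like MELO3C002759.2 (3.13). For MELO3C005859.2 this was mainly the fall in WT, from means of 21.95 to 1.61 FPKM, while *Cmnor* stayed low at 0.269 and 0.641 FPKM. In *CmNOR/Cmnor* 8 of the 9 moved lower, among them the hevamine-A-like gene MELO3C006965.2 (-1.85 ± 0.39), the family 19 chitinase MELO3C007961.2 (-3.11) and snakin-2 MELO3C011008.2 (-1.73).

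Storage was compared with 36 DAP, the day of harvest. In WT 8 genes rose and 7 fell, beside 3.99% and 4.3% of all genes. In *CmNOR/Cmnor* 4 rose and 6 fell (2.76% and 5.14%), and in *Cmnor* 10 rose and 10 fell (5.52% and 6.61%). Of the 11 family 19 chitinases, 4 rose in WT, 2 in *CmNOR/Cmnor* and 1 in *Cmnor*, where 2 fell. The rise of MELO3C002759.2 in WT rested on stored replicate 1 (19.5, 0.995 and 0.614 FPKM). It was 0.31 without that library, and its call was also lost without replicate 1 or 2 at 36 DAP (1.43 and 1.21). That of MELO3C007962.2 was lost without stored replicate 3 (0.94). The hevamine-A-like gene of family 18 had storage differences of 0.06 in WT, 0.36 in *CmNOR/Cmnor* and 0.76 in *Cmnor* on the log2 scale, under the threshold of 1 in each.

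The family 19 chitinase MELO3C007961.2 gave 1.78, 1.85 and 2.89 FPKM in WT at 36 DAP and 322, 40.7 and 636 FPKM after storage. *CmNOR/Cmnor* went from 10.99, 8.92 and 5.58 FPKM to 60.96, 57.9 and 71.9 FPKM, and *Cmnor* from 0.954, 1.93 and 2.59 FPKM to 7.18, 7.44 and 7.94 FPKM. All 3 genotypes rose without overlap between the stages, by 6.03, 2.80 and 1.64 on the log2 scale, but the stored WT libraries spread widely and replicate 2 lay below the *CmNOR/Cmnor* libraries. The difference of these changes from WT was -3.23 ± 0.74 in *CmNOR/Cmnor* and -4.39 ± 0.74 in *Cmnor*. PR-4-like MELO3C004385.2 varied among stored WT libraries in the same order, at 20.1, 5.21 and 66.5 FPKM, and rose there by 2.41, while the change was -0.36 in *CmNOR/Cmnor* (adjusted p = 0.683). With only the libraries compared in the limma fit, the call of this rise in WT was lost (adjusted p = 0.133).

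Stored WT libraries were in general less alike for these genes than libraries of other groups. Of the 42 genes with at least 1 FPKM there, replicate 1 was over 2-fold above both others for 4, replicate 3 for 2, and replicate 2 was over 2-fold below both others for 5. In stored *CmNOR/Cmnor* fruits 0 of 35 genes had such a library by the same rule.

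Other genes kept a tighter range. Thaumatin-like protein 1b MELO3C009383.2 went from at most 0.281 FPKM in WT at 36 DAP to 14.2, 12.4 and 24.00 FPKM after storage, and in *CmNOR/Cmnor* to 4.50, 3.18 and 3.59 FPKM and in *Cmnor* to 1.27, 1.12 and 1.46 FPKM. The genotypes were ordered WT, *CmNOR/Cmnor*, *Cmnor* without overlap, and the rises of 3.97, 2.04 and 1.15 on the log2 scale differed from that of WT by -1.93 in *CmNOR/Cmnor* (adjusted p = 0.00024) and -2.82 in *Cmnor*. Basic endochitinase C MELO3C013736.2 rose in WT (1.64) and *CmNOR/Cmnor* (1.72), from 3.597 to 5.38 FPKM in these 6 libraries to 15.3 to 19.5 FPKM, and glucosidase 12 MELO3C014432.2 rose in both (1.65 and 2.68).

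Snakin-2 MELO3C011008.2 moved in opposite directions. It fell by 1.71 on the log2 scale in WT and by 1.87 in *CmNOR/Cmnor*, where it went from 30.8, 28.6 and 24.7 FPKM to 6.19, 8.98 and 5.90 FPKM, and rose by 2.42 in *Cmnor*, from 922, 654 and 634 FPKM to 3849.5, 3864 and 3935 FPKM. The difference between *Cmnor* and WT in this change was 4.12 ± 0.31 (adjusted p = 1.8e-11). In *Cmnor*, glucanase MELO3C004704.2 fell by 3.23 and Snakin-1 MELO3C018503.2 by 2.28, to 14.3, 15.3 and 14.1 FPKM and 3.39, 2.98 and 3.04 FPKM.

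The storage change differed from that of WT for 29 of the 106 genes in *Cmnor*, 14 higher and 15 lower, beside 18.1% of all tested genes called in either direction. For *CmNOR/Cmnor* it differed for 4, beside 1.63%. Of the 11 family 19 chitinases, 5 were among the 15 lower ones in *Cmnor*, beside 9.51% of all tested genes called lower. Among these 5, MELO3C002759.2 had uneven stored WT libraries (19.5, 0.995 and 0.614 FPKM). Its call was lost in the limma fit of only the libraries compared (adjusted p = 0.123).

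**Figure D5:**
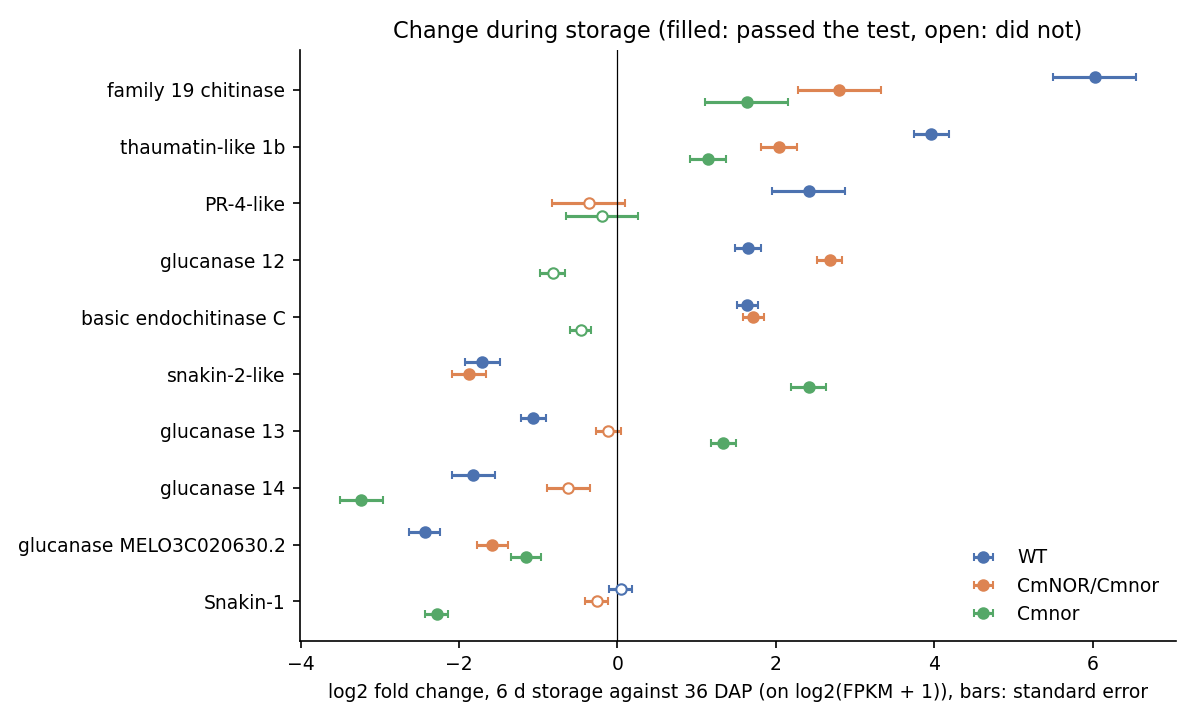
Log2 fold change on the log2(FPKM + 1) scale from 36 DAP to 6 d of storage for 10 defense genes in each genotype (colors), with bars for the standard error and filled points for changes that passed the test. The family 19 chitinase MELO3C007961.2 lies at 6.03 in WT and 1.64 in *Cmnor*, and the snakin-2-like gene MELO3C011008.2 lies at -1.87 in *CmNOR/Cmnor* and 2.42 in *Cmnor*.

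Genes beside the defense proteins in the same responses were counted from lists of descriptions. Among 133 tested genes of perception and signaling (such as EDS1, NPR1 and disease resistance receptors), 30 were higher and 3 lower in *Cmnor* than in WT at 33 DAP, 35 and 3 at 36 DAP, 19 and 3 at 39 DAP, and 23 and 5 after storage. The higher ones were 22.6%, 26.3%, 14.3% and 17.3% of the list, beside the 22.8%, 22.9%, 19.8% and 21.4% of all genes tested, and the medians were 0.28, 0.23, 0.06 and 0.02. Among 80 tested genes for other defense products (defensins, osmotins, germin-like proteins, proteinase inhibitors, lipoxygenases and polyphenol oxidases), 24 were higher and 5 lower, 24 and 4, 18 and 5, and 18 and 6 at these stages. The higher ones were 30%, 30%, 22.5% and 22.5% of this list, with medians of 0.21, 0.21, 0.12 and 0.00. In *CmNOR/Cmnor* against WT the signaling genes gave 1 higher and 1 lower at 33 DAP and 4 lower after storage, and the products 4 higher and 4 lower at 33 DAP and 2 lower after storage, beside 1.88% higher and 0.98% lower of all genes at 33 DAP and 0.904% lower after storage.

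Of the 106 defense genes, 41 lie within 100 kb of another one, of the same or another family, in 16 clusters. How many would do so in another set of genes of this size was not tested. Neighbours often differed in level and direction. Snakin-2 lies in a stretch of chromosome 3 (29324362 to 29396067) with the thaumatin-like genes MELO3C030111.2 and MELO3C011018.2, of which the latter was highest in WT. Thaumatin-like MELO3C013762.2 has MELO3C013763.2 beside it on chromosome 6, whose highest group mean was 5.64 FPKM, in *CmNOR/Cmnor* at 33 DAP. On chromosome 4, MELO3C009383.2 reached a mean of 16.9 FPKM in stored WT fruits, while its neighbour MELO3C009384.2 stayed at or under 0.0197 FPKM in every group.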

How the data were processed

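RNA-seq libraries of melon flesh (3 genotypes at 4 stages, 3 libraries each, 36 in all) were made by the authors with a TruSeq kit, and HISAT2 placed the clean reads on the melon reference (DHL92, v3.6.1). The deposited values are FPKM (fragments per kilobase, scaled to the mapped reads), and they were used as deposited. The submitters' processing notes also name TopHat2, StringTie and Cufflinks, with no versions. For the counting, strand setting and annotation version, nothing is given in the sources used here. Gene descriptions and Pfam domains came with the table. Of its 25121 named lines, 24901 were tested, the remaining 220 being 0 throughout.

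Values were tested as log2(FPKM + 1) in limma 3.58.1 (R 4.3.3), using a variance trend and 1 model of the 36 libraries in 12 groups, without covariates. Log2 differences are on this scale and understate changes of genes with low levels. A gene was called at a Benjamini-Hochberg adjusted p under 0.05 over all tested genes and a log2 difference of at least 1. There were 18 comparisons of 2 groups and 4 interactions, and comparisons with WT share the WT libraries. Levels are means ± SD of 3 libraries, and folds are ratios of these means. The fit was tested on simulated data. Depth was estimated from the steps between low FPKM values, and no read counts were used.

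The 106 genes, the lists and the alternatives were chosen with earlier results of these data known. Genes named singly were the 12 with the highest group mean, up to 8 highest and 8 lowest called differences per comparison (mean of at least 5 FPKM, no overlap), up to 4 per direction in interactions, the top gene of each family and named genes' neighbours within 100 kb; others were singled out after their values were seen. Alternatives were a pseudocount of 0.1, a minimum of 1 FPKM in any 3 libraries, median and upper-quartile scaling, an adjusted p under 0.01, no fold threshold, only the libraries compared, the replicate number as a block, and each library left out in turn. Deviations of same-numbered libraries from their group means correlated at r of -0.407 to 0.717 (median 0.002, over 0.1 in 44 of 198 pairs). Every r was over 0.1 for 1 of 66 pairs of groups, so that the numbers were not taken to pair the libraries. No sequences were used.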

Additional observations from a re-analysis of the deposited data

Results flagged for a closer look

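Several defense genes moved differently between the genotypes with time, by the interaction term of the limma fit (adjusted p in parentheses). Values are differences of log2 changes, a genotype minus WT, and both sets use the same WT libraries.

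From 36 DAP to 6 d of storage, *CmNOR/Cmnor* changed less upward than WT in the family 19 chitinase MELO3C007961.2 by -3.23 (0.0068), in PR-4-like MELO3C004385.2 by -2.78 (0.0080) and in thaumatin-like MELO3C009383.2 by -1.93 (2.4e-04), and more upward in glucosidase 12 MELO3C014432.2 by 1.03 (0.0045). In *Cmnor* the same 3 genes stood at -4.39 (1.7e-05), -2.61 (0.0015) and -2.82 (3.6e-08), and EP3-like MELO3C002759.2 at -2.78 (0.0068). Above WT in *Cmnor* were snakin-2 MELO3C011008.2 by 4.12 (1.8e-11), glucosidase 13 MELO3C014182.2 by 2.40 (9.5e-10), thaumatin-like MELO3C003745.2 by 1.97 (0.0025) and the glucanase MELO3C023847.2 by 1.74 (0.0015). For MELO3C007961.2, MELO3C004385.2, MELO3C002759.2, MELO3C003745.2 and MELO3C023847.2 the stored WT libraries differed by more than 5-fold from lowest to highest.

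From 33 to 39 DAP, *CmNOR/Cmnor* differed from WT in MELO3C007961.2 by -3.11 (0.0029), in MELO3C014182.2 by -2.32 (1.7e-08), in the hevamine-A-like gene MELO3C006965.2 by -1.85 (9.5e-04), in snakin-2 MELO3C011008.2 by -1.73 (1.5e-04) and in MELO3C014432.2 by 1.92 (4.4e-07). *Cmnor* differed in acidic endochitinase-like MELO3C005859.2 by 3.46 (4.5e-04), in glucosidase 14 MELO3C004704.2 by 3.41 (4.1e-08), in MELO3C002759.2 by 3.13 (0.0028) and in thaumatin-like protein 1 MELO3C013762.2 by 2.93 (3.3e-08). It stood below WT in endochitinase-like MELO3C007966.2 by -1.94 (7.7e-06), in the glucanase MELO3C020630.2 by -1.68 (1.4e-05), in MELO3C008291.2, which carries no annotated domain, by -1.32 (8.2e-08) and in major latex protein 15-like MELO3C020271.2 by -1.10 (0.045). This last call was lost under 13 alternatives, among them the removal of *Cmnor* replicate 2 of 33 DAP.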

How the results depend on the processing

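Counts of called defense genes are given by setting. With a pseudocount of 0.1, *Cmnor* against WT gave 70, 62, 67 and 65 genes at 33, 36 and 39 DAP and after storage, *Cmnor* against *CmNOR/Cmnor* 68, 68, 67 and 65, and *CmNOR/Cmnor* against WT 10, 12 and 7 at 36 and 39 DAP and after storage. Storage changes then numbered 21 in *CmNOR/Cmnor* and 42 in *Cmnor*, changes from 33 to 39 DAP 24 in WT and 21 in *Cmnor*, storage changes differing between *CmNOR/Cmnor* and WT 8, and 33 to 39 DAP changes differing between *Cmnor* and WT 35. Without a fold threshold the first 3 sets were 75, 69, 73 and 71, then 73, 73, 74 and 75, then 20, 15, 20 and 11. Storage changes were 36, 27 and 57 in WT, *CmNOR/Cmnor* and *Cmnor*, 33 to 39 DAP changes 39, 39 and 50, and the interactions 8 and 52 for storage and 19 and 48 for 33 to 39 DAP. Median scaling gave 26 for *Cmnor* against *CmNOR/Cmnor* at 36 DAP. With only the libraries compared, limma called 0 genes in *CmNOR/Cmnor* against WT after storage (18 at an unadjusted p under 0.05, lowest adjusted p 0.0587) and 2 storage changes differing between these genotypes. Without WT replicate 1 or 2 the count after storage was 2 or 9. The replicate block moved none of the 22 counts by over 1.5 times (3 to 43 genes), and the replicate numbers were not taken to pair the libraries.

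Of 196 results for 35 genes called in a comparison, 167 were called under every alternative run, and no direction was reversed. In 69 of 2893 recomputed cases the call was lost. Of these, 16 came with only the libraries compared and 7 with an adjusted p under 0.01; the storage interactions of MELO3C004385.2, MELO3C002759.2 and MELO3C003745.2, and that of MELO3C007961.2 in *CmNOR/Cmnor*, were among the 16. FPKM carry no counts, so that low genes could not be given a counting error.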
